A study of Rattus norvegicus with 352 samples.

Results

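Libraries of whole brain hemispheres differ in their level of collagen transcripts, and those at the 2 ends of that range are compared here. They were selected on a measured value, the level of Col1a2, which encodes the alpha-2 chain of type I collagen. The 85 libraries of highest Col1a2 level form the high-Col1a2 group and the 85 of lowest level the low-Col1a2 group. Together these 170 libraries are 49.7% of those in the table, and the other 50.3% form the intermediate group. A level is log2(CPM + 1), where CPM is a gene's estimated count per 1000000 counts of its library, not corrected for transcript length. Differences are the mean of the high-Col1a2 group minus that of the low-Col1a2 group in log2 units, and they understate the fold of low genes.

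All libraries come from naive, untreated heterogeneous stock rats, an outbred population, and carry a single label, whole brain hemisphere. PolyA RNA was sequenced from frozen tissue. Of the samples the labels name, 97.2% are in the table and 10 are not analysed here. The labels give neither age nor sex, nor say how much of the membranes stayed on the brain at dissection. That each library is a separate rat is assumed, and the p-values rest on the spread from library to library. Library totals ran from 5418230 to 42980793 estimated counts, with medians of 22171858 in the high and 21137035 in the low group. Col1a2 itself rested on a median of 1587 estimated counts in the high and 902 in the low group. The ribosomal RNA share had medians of 0.539% in the high and 0.514% in the low group. The groups held different shares of the sets of libraries whose identifiers start alike. The largest set gave 41 libraries to the high and 37 to the low group, and one of 18 libraries gave 2 and 10. A gene was called at a Benjamini-Hochberg adjusted p under 0.05 in limma, fitted to all 19239 genes of mean level at least 0.5 other than Col1a2.

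The meninges are the membranes around the brain: an outer dura, the arachnoid barrier and the pia that follows the vessels inward. Their fibroblasts make the fibrillar collagens, small proteoglycans that bind collagen, and secreted factors that include insulin-like growth factor 2 and retinoic acid. Type I collagen is built from chains of Col1a1 and Col1a2, and Col3a1 encodes type III collagen, which is laid down with it. Brain parenchyma makes little of either, and the membranes and the sheaths of larger vessels are known sources. Which cells these transcripts came from in these libraries was not measured. In a whole hemisphere, fewer cells of a type and less RNA per cell cannot be told apart, so a share of cells was not measured.

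The promoters of genes that moved together with Col1a2 are shown to give the sequence context of this set. They are the 250 bases before the RefSeq start on GRCr8, in the direction of the gene. Capitals mark 3 short motifs on either strand, TATAAA, the CCAAT box and the GC box (GGGCGG). No marked motifs overlap.
Col1a2: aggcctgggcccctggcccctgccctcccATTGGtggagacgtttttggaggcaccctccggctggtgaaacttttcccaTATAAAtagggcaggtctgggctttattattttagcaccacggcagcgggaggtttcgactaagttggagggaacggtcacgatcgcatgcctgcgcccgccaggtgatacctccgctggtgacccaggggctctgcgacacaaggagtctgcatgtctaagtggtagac
Igf2: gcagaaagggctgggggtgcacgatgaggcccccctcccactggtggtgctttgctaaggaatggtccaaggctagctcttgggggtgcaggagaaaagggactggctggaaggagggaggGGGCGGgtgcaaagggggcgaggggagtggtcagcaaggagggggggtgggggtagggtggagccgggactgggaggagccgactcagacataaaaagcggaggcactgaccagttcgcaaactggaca
Igfbp2: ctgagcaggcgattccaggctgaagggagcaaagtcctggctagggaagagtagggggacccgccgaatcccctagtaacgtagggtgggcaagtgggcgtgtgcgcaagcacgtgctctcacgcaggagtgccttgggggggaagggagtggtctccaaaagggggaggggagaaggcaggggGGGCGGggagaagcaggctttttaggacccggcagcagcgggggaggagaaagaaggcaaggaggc
Fmod: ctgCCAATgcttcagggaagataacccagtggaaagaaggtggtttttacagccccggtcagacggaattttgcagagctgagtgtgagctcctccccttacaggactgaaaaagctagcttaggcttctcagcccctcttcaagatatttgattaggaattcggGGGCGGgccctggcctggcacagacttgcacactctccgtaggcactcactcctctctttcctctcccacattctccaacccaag
Vim: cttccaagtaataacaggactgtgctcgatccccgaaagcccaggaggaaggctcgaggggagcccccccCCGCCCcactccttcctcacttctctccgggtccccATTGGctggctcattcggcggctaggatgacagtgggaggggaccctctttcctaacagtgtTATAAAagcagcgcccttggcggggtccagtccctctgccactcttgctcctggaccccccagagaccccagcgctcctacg
The Col1a2 window is chr4:33518307-33518556 on the plus strand and the Igf2 window, before one of its starts, is chr1:207250476-207250725 on the minus strand. The windows of Igfbp2, Fmod and Vim, all on the plus strand, are chr9:81864561-81864810, chr13:48045317-48045566 and chr17:81577011-81577260. Of the 11 genes of this kind, Col1a2 and the 10 whose levels followed it most closely, 7 matched the promoter table, with 8 promoters. TATAAA occurred in 2 of the 8, those of Col1a2 and Vim, against 12.9% of all 33469 promoters in the table. CCAAT occurred in 4 of the 8 against 34.02% of all, and GGGCGG in 6 of the 8 against 30.5%. These counts describe letters in a window and say nothing of binding.

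Col1a2 (chromosome 4, 33518557 to 33553484) had a mean level of 5.80 ± 0.29 (SD over all libraries). In the low group it ran from 4.39 through a median of 5.47 to 5.59, and in the high group from 6.03 through 6.15 to 6.53. These values chose the libraries and carry no test. At the lower boundary, the last library of the low group had 5.592 and the first of the intermediate group 5.594. At the upper boundary, the last of the intermediate group had 6.02 and the first of the high group 6.03, so the boundaries fall in a continuous range. The plot of Col1a2 in every library shows 1 library apart from the rest at 4.39, with the next lowest at 5.10.

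**Figure D1:**
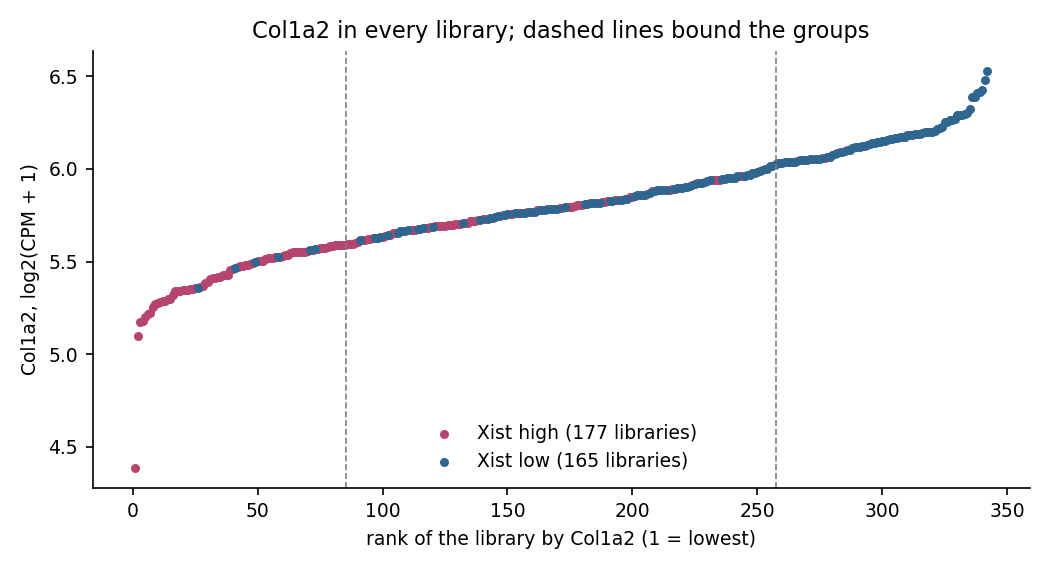
Col1a2 level, log2(CPM + 1), of each library in rank order, coloured by Xist level, with dashed lines at the boundaries of the groups. Levels rise without a break at the boundaries, Xist-high libraries fill most of the low group and Xist-low libraries most of the high group.

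The groups differed in more than collagen. Xist, a noncoding RNA that coats the inactive X chromosome, fell into 2 levels with nothing between 4.89 and 8.62. The Xist-high libraries, 51.8% of all, had Ddx3y, a Y-linked helicase gene, at 1.12 or below, and the Xist-low libraries had it at 5.83 or above. Of the low group, 79 of 85 libraries were Xist-high. Of the high group, 10 of 85 were. High Xist with low Ddx3y is the pattern of females and the reverse that of males, though the labels give no sex. The high against low contrast is thus largely also one of male-pattern against female-pattern libraries. The mean Col1a2 level was 5.63 ± 0.24 (SD) in Xist-high and 5.98 ± 0.22 (SD) in Xist-low libraries. The comparison was therefore also made with high and low groups cut inside each Xist level, 44 against 44 Xist-high and 41 against 41 Xist-low libraries, with the level as a term, a choice made after these values were seen. It is called the within-level comparison here.

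Between the groups, 3609 genes were higher in the high group (18.8% of genes tested) and 7530 lower (39.1%). Most differences were small, with a median over all genes of -0.03. A rise of at least 0.2 was reached by 1.51% of genes tested, and a fall of at least 0.2 by 1158 genes (6.02%). Scaling by median ratios moved the split to 5385 higher and 5709 lower genes and the median of all genes to -0.003. With the levels of Xist and Ddx3y as terms, 1481 genes were higher and 3118 lower. In the within-level comparison 3390 genes were higher (17.6%) and 6340 lower (33%). The 2 comparisons share most of their libraries, so one is no independent check of the other.

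The collagen and growth factor genes set as markers of this contrast, with earlier results of these data known, moved with Col1a2. Col3a1, Col1a1 and Igf2 also followed Col1a2 most closely over all libraries, so their p-values are no independent support. Col1a1 (chromosome 10, 80380458 to 80397461) ran from 3.98 through 4.67 to 5.18 in the low group and from 5.01 through 5.39 to 6.15 in the high group. The ranges overlap little, and 74 of 85 high-group libraries lay above every low-group library. The difference was 0.76 ± 0.03 (SE), 1.69-fold on this scale, with a limma adjusted p of 3.12e-53. Within levels it was 0.51 ± 0.03 (adjusted p = 2.89e-36).

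Col3a1 (chromosome 9, 54866646 to 54902578) ran from 3.74 through 4.44 to 5.03 in the low and from 4.62 through 5.03 to 5.64 in the high group. A single Xist-low library of high Col3a1 in the low group leaves 42 of 85 high-group libraries above every low-group library. Its difference was 0.62 ± 0.03 (SE, limma adjusted p = 3.38e-52), and 0.45 ± 0.03 within levels. Igf2 (chromosome 1, 207243873 to 207261263) encodes a growth factor secreted by meninges and choroid plexus. It ran from 6.08 through 6.60 to 7.02 in the low and from 6.87 through 7.22 to 7.55 in the high group. Here 77 of 85 high-group libraries exceeded every low-group library. The difference was 0.62 ± 0.03 (SE, limma adjusted p = 5.63e-51), and 0.48 ± 0.02 within levels.

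**Figure D2:**
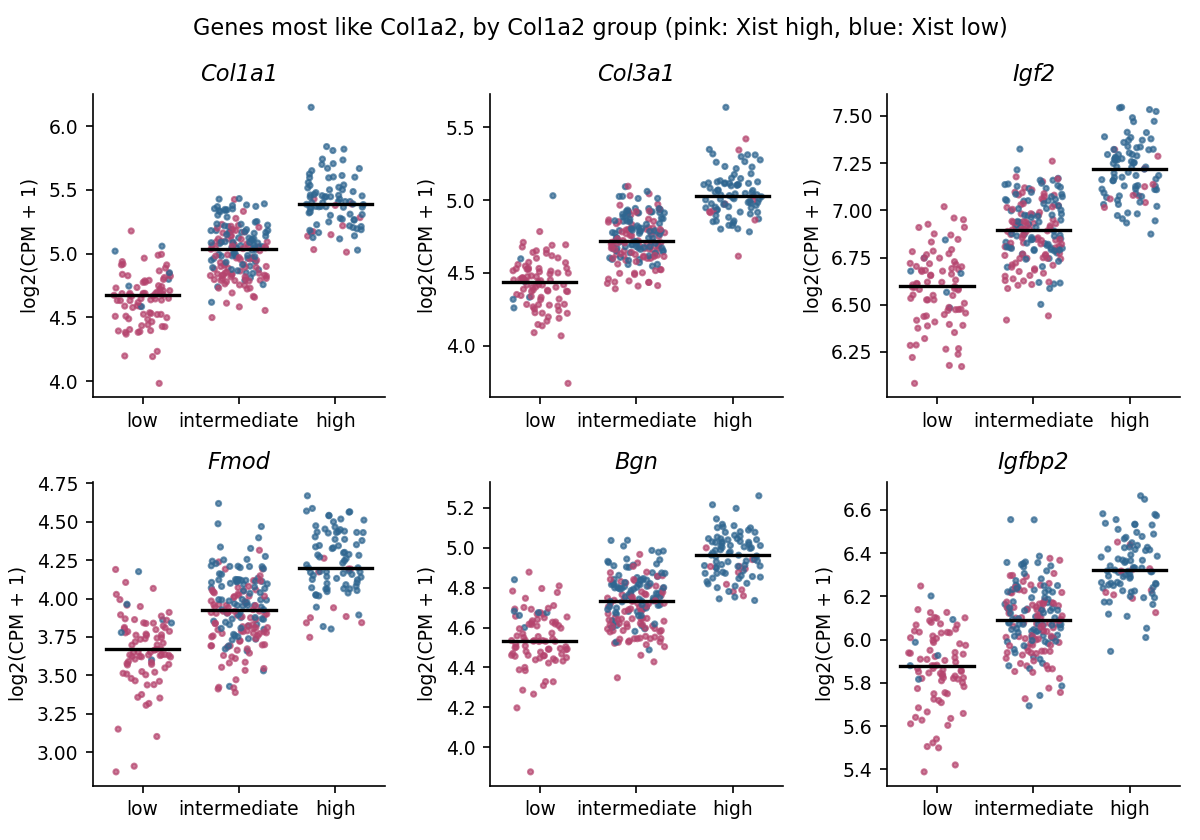
Levels, log2(CPM + 1), of 6 genes in each library of the low, intermediate and high groups of Col1a2, with a black line at each group's median and colour for Xist level. Each median is higher in the high than in the intermediate and in the intermediate than in the low group, and the high and low groups of Col1a1 and Igf2 overlap in few libraries.

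The fibrillar collagens did not move as a family. Besides Col1a2, 2 of 10 members tested rose and 8 fell, against 18.8% and 39.1% of all genes. The list median was -0.23, against -0.03 over all genes. Col1a1 and Col3a1 were the risers. Col24a1 fell by 0.49 ± 0.06 (SE), Col27a1 fell by 0.42 and Col11a1 fell by 0.35. Col5a3 and Col5a2, chains of type V collagen that co-assembles with type I, fell by 0.11 and 0.08. Within levels 2 rose and 6 fell, and Col5a2 was not called there (-0.06, limma adjusted p = 0.054). With the level of Meg3, a noncoding RNA described after these groups, as a term, 5 of the 10 rose and none fell. There Col24a1, Col27a1 and Col11a1 were not called, at 0.04, 0.04 and 0.06, while Col5a2 and Col5a3 were higher by 0.14 and 0.15. The other collagens split as well, with 11 of 30 higher and 13 lower. Col8a2, a short-chain collagen, rose by 0.39, Col6a3, a microfibril chain, by 0.38 and Col8a1 by 0.29. Col16a1 fell by 0.30 and Col19a1 fell by 0.29, and with the Meg3 term they were at 0.12 and 0.02.

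Collagen assembly genes, whose products modify, process or cross-link collagen, were mixed. Of 29 genes, 13 were higher and 6 lower (median 0.02), against 18.8% and 39.1% of all genes. Pcolce, which enhances removal of the collagen C-propeptide, rose by 0.33 ± 0.03 (SE), and the cross-linking enzyme gene Loxl1 by 0.27. The prolyl hydroxylase family gene P3h3 fell by 0.39 and the C-proteinase gene Bmp1 by 0.23. Ppib and Loxl3 were not called, at -0.008 and -0.01, and Loxl3 was higher by 0.09 within levels.

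Small proteoglycans that bind collagen fibrils were more uniform. Of 12 genes, 8 were higher and 1 lower (median 0.23), against 18.8% and 39.1% of all genes. Fmod, fibromodulin (chromosome 13, 48045567 to 48056184), ran from 2.87 through 3.67 to 4.19 in the low and from 3.75 through 4.20 to 4.67 in the high group. The ranges overlap, and 46 high-group libraries lay above every low-group library. The difference was 0.56 ± 0.03 (SE, limma adjusted p = 7.45e-34), and 0.36 within levels. Bgn, biglycan (chromosome X, 156348633 to 156360797), ran from 3.88 through 4.54 to 4.88 and from 4.74 through 4.96 to 5.26. Its difference was 0.41 ± 0.02 (SE, limma adjusted p = 4.01e-44), and 0.25 within levels. Ogn rose by 0.32, Prelp by 0.27 and Lum, lumican, by 0.26. Aspn and Chad, at 0.03 and 0.001, were not called.

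Elastic fibre and matrix glycoprotein genes rose in 23 of 35 cases and fell in 4 (median 0.15), against 18.8% and 39.1% of all genes. Nid1, nidogen of basement membranes, rose by 0.38 ± 0.03 (SE), Fbln1, fibulin of matrix fibres, by 0.35 and the vitronectin gene Vtn by 0.31. Thbs2 rose by 0.30 and Mfap4 by 0.29. Fbln2 (0.008) and Fbn2 (-0.0001) were not called.

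Genes of the meningeal fibroblast list rose in 26 of 34 cases and fell in 1 (median 0.15), against 18.8% and 39.1% of all genes. Serping1, the inhibitor of complement C1, ran from 2.54 through 3.19 to 3.60 in the low and from 3.22 through 3.66 to 4.64 in the high group. It rose by 0.48 ± 0.03 (SE), with 50 of 85 high-group libraries above every low-group library. Vim, vimentin, rose by 0.35, the oxidase gene Cyp1b1 by 0.32 and the connexin gene Gjb2 by 0.29. Rdh10 (0.006) and Gjb6 (-0.003) were not called. The lists overlap: Igf2 is also counted in the insulin-like growth factor and imprinted lists, and Gjb6 in the astrocyte list.

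Arachnoid barrier and retinoid genes rose in 15 of 21 cases and fell in none (median 0.13), against 18.8% and 39.1% of all genes. Aldh1a2, which makes retinoic acid, ran from 2.94 through 3.86 to 4.31 in the low and from 3.94 through 4.27 to 4.69 in the high group. The difference was 0.45 ± 0.03 (SE), and 38 high-group libraries exceeded every low-group library. Cdh1, the adhesion molecule E-cadherin of arachnoid barrier cells, rose by 0.37, Wnt6 by 0.30 and the exporter gene Slc47a1 by 0.30. Rbp4 and Abcg2 were not called, at 0.001 and -0.002.

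Transporters of the meningeal border rose in 18 of 21 cases and fell in none (median 0.15), against 18.8% and 39.1% of all genes. Slc6a20a, a proline transporter, rose by 0.39 ± 0.04 (SE), the organic anion transporter gene Slc22a6 by 0.37 and the sulfate transporter gene Slc13a4 by 0.32. Mesenchymal transcription factor genes rose in 26 of 37 cases and fell in 3, with a median of 0.16. Foxc2 rose by 0.32, Osr1 by 0.28, Foxd1 by 0.28 and Foxc1 by 0.25. Foxp1 (-0.02) and Snai1 (0.02) were not called.

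In the insulin-like growth factor system, the ligand and binding protein genes carried the rise. Of 15 members, 8 were higher and none lower (median 0.06), against 18.8% and 39.1% of all genes. Igfbp2, which binds the ligands in extracellular fluid, ran from 5.39 through 5.88 to 6.25 in the low and from 5.95 through 6.32 to 6.67 in the high group. The difference was 0.46 ± 0.02 (SE, limma adjusted p = 2.14e-40), 63 high-group libraries exceeded every low-group library, and it was 0.36 within levels. Igfbp5 rose by 0.31 and the protease gene Pappa2 by 0.18. The receptor gene Igf1r was not called, at -0.01. Among TGF-beta, BMP and Wnt genes, 20 of 42 were higher and 2 lower, with a median of 0.05. The Wnt antagonist gene Sfrp1 rose by 0.37, the receptor gene Tgfbr2 by 0.21 and the ligand genes Bmp7 and Bmp6 by 0.21 and 0.20.

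**Figure D3:**
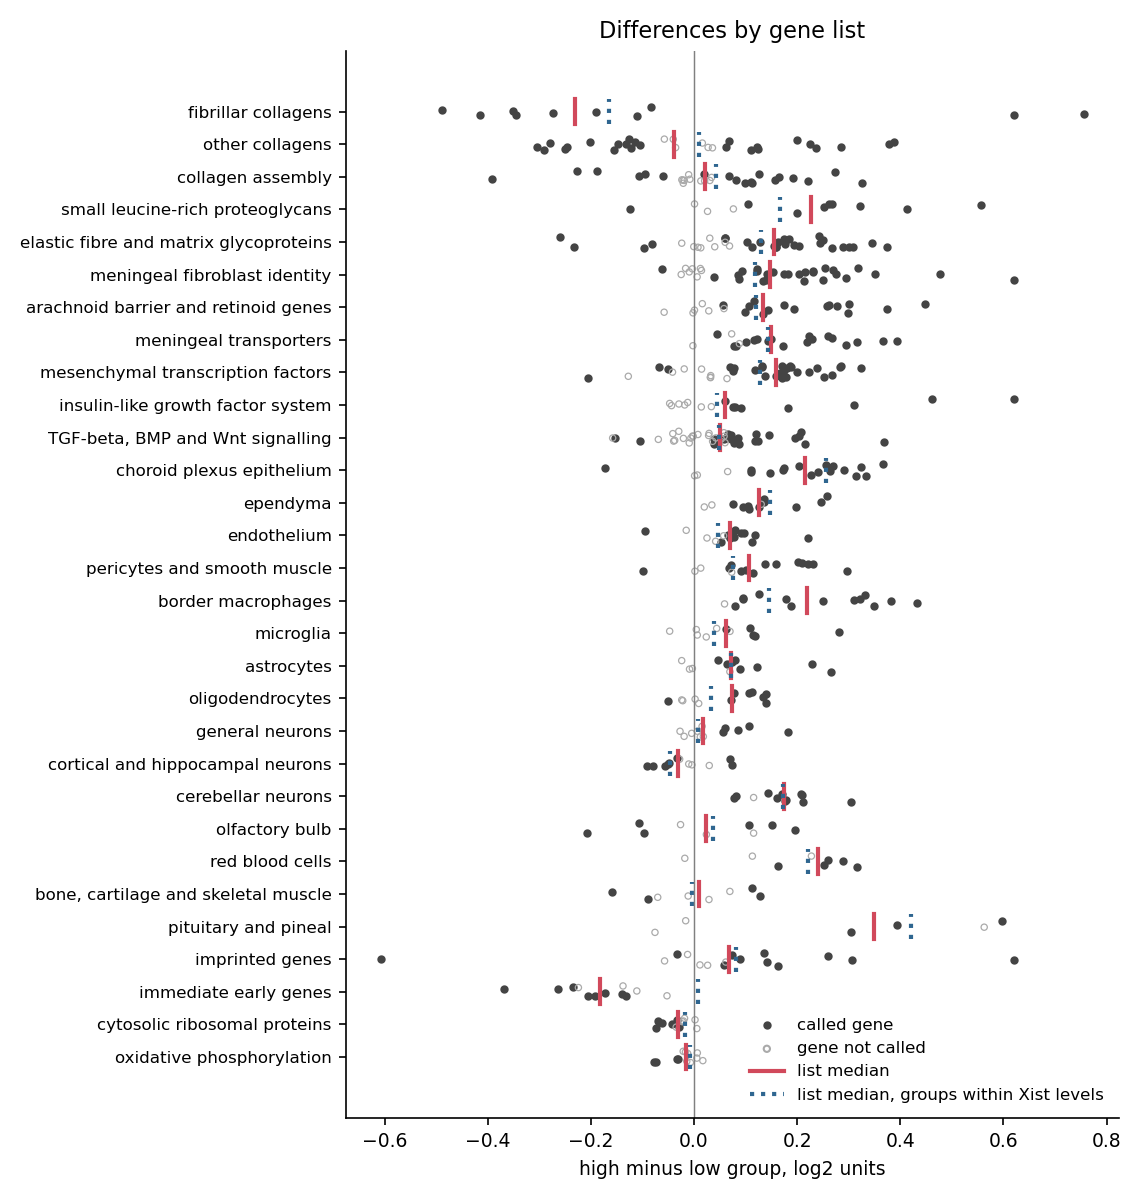
Differences, high minus low group in log2 units, of the members of 30 gene lists, with filled points for called genes, open points for others, a solid line at each list's median and a dotted line at its median in the within-level comparison. Matrix, fibroblast, barrier and transporter lists lie mostly above 0. So do the choroid plexus, border macrophage, cerebellar and red blood cell lists, with medians above those of the fibroblast, barrier and transporter lists. Fibrillar collagens split, and immediate early genes move to about 0 within levels.

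Markers of other cell types moved with the contrast too, and their part in the results above was not tested. Choroid plexus genes are expressed by the secretory epithelium of the ventricles. They rose in 16 of 20 cases and fell in 1 (median 0.21), against 18.8% and 39.1% of all genes. Their summed level ran from 762 through 1217 to 1726 CPM in the low group and from 1059 through 1347 to 1797 CPM in the high group. Aqp1, the water channel, rose by 0.37 and Kl by 0.33. With the choroid plexus transcript Ttr as a term, 24 of the 34 fibroblast genes were higher, where 16.6% of all genes were. Of the choroid plexus genes, 14 were still higher with this term and 1 lower (median 0.14). The term therefore did not remove the rise of that list. Ependymal genes rose in 10 of 13 cases (median 0.13, 63.9 to 110.4 CPM summed in the low and 76.3 to 114.2 in the high group).

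Border macrophage genes rose in 13 of 14 cases and fell in none (median 0.22), against 18.8% and 39.1% of all genes. They summed to between 30.5 and 75.02 CPM in the low group and between 49.3 and 88.3 in the high group. Cd74, the invariant chain of antigen presentation, rose by 0.43 ± 0.06 (SE) and Colec12 by 0.32. RT1-Da, a class II gene of a family of near copies, rose by 0.38. Microglial genes rose in 5 of 11 cases (median 0.06), with Olfml3 at 0.28 and Tmem119 not called at 0.004. Pericyte and smooth muscle genes rose in 12 of 16 cases and fell in 1 (median 0.11), led by Notch3 at 0.30 and Myh11 at 0.23. Within levels 8 of the 16 rose, and with Xist and Ddx3y as terms 3 did. Endothelial genes rose in 12 of 17 and fell in 1 (median 0.07), of which 6 were higher within levels. Cdh5 rose by 0.22, and the barrier transporter gene Abcb1a was not called (0.03).

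Astrocyte genes rose in 8 of 12 cases (median 0.07). Gfap, the intermediate filament of astrocytes that line the brain surface, rose by 0.27 ± 0.02 (SE) and the water channel gene Aqp4 by 0.23. Oligodendrocyte genes rose in 7 of 12 cases and fell in 1 (median 0.07), and within levels 3 rose and 2 fell. General neuronal genes rose in 5 of 12 cases (median 0.02), led by Nefm at 0.18, and in 9 of 12 with median ratio scaling. Cortical and hippocampal neuron genes rose in 2 and fell in 6 of 12 (median -0.03), and Neurod6 fell by 0.09. Over all genes 18.8% rose and 39.1% fell, with a median of -0.03, so this list was near the background. With median ratio scaling 3 of these 12 rose and 2 fell, so the balance of calls in this list turns with the scaling. Cerebellar neuron genes rose in 11 of 12 cases (median 0.17), with Cbln3 at 0.31. Their summed level ran from 287.5 through 1440 to 1945 CPM in the low and from 1049 through 1567 to 1803 CPM in the high group.

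The 25 largest rises also held Slc6a4, Tph2, Slc6a5, Hoxb5, Cga and Pomc. Slc6a4, the serotonin transporter of the raphe nuclei, ran from 0.13 through 1.57 to 3.40 in the low and from 0.26 through 2.68 to 3.36 in the high group. The groups overlap almost fully, and the difference was 0.69 ± 0.14 (SE, limma adjusted p = 9.66e-06). The serotonin synthesis gene Tph2 rose by 0.63 ± 0.14. With the Meg3 term neither was called, at -0.15 and -0.22. The glycine transporter gene Slc6a5 rose by 0.40 and the hindbrain homeobox gene Hoxb5 by 0.40, and with the Meg3 term they were not called, at 0.09 and 0.17. The pituitary hormone genes Cga and Pomc rose by 0.60 and 0.39. Neither was called with the Meg3 term, at 0.12 and 0.08 (limma adjusted p = 0.661 and 0.665), or with Xist and Ddx3y as terms, at 0.21 and 0.25 (adjusted p = 0.544 and 0.277). Of 6 pituitary and pineal genes tested, 3 rose and none fell, and none rose with either set of terms. Their summed level had medians of only 12.8 CPM in the low and 15.8 CPM in the high group, with maxima of 382.3 and 1583 CPM, so a few libraries stand far above the others. Red blood cell genes rose in 5 of 8 cases (median 0.24). Within levels 5 rose as well, and with Xist and Ddx3y as terms none did (median 0.21). Bone, cartilage and skeletal muscle genes rose in 2 and fell in 2 of 8 (median 0.009). Olfactory bulb genes rose in 3 and fell in 3 of 9 (median 0.02). Over all genes 18.8% rose and 39.1% fell, and no direction is given for the bone or the olfactory list. Imprinted genes rose in 9 and fell in 2 of 16 (median 0.07). Cytosolic ribosomal protein genes fell in 6 of 12 cases and oxidative phosphorylation genes in 4 of 12, near the 39.1% of all genes that fell. With median ratio scaling 1 and 2 of them rose and 2 and 1 fell, so no direction is given for either list.

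Several named differences were near 0 within levels or belong to genes that define the levels. The Y-linked genes Ddx3y, Eif2s3y, Kdm5d and Uty were higher by 4.96, 4.47, 3.96 and 3.26, and Xist was lower by 7.45 between groups of unequal Xist makeup. Within levels Eif2s3y was at -0.03 and Kdm5d at -0.04, neither called (limma adjusted p = 0.0743 and 0.117). Uty was at -0.06 there and was called lower (adjusted p = 0.0058). Inside the Xist-low libraries alone, Ddx3y, Eif2s3y, Kdm5d and Uty were each called lower, at -0.11, -0.09, -0.07 and -0.11. Glycam1, a mucin-like glycoprotein gene, fell by 0.90 between the groups. Within levels its difference was 0.09 and it was not called (limma adjusted p = 0.137). Eif2s3, an X-linked translation factor gene, fell by 0.48 and was 0.02 within levels (adjusted p = 0.0776). The immediate early genes, induced by neuronal activity, fell in 8 of 12 cases, where 39.1% of all genes fell. Among them, Arc fell by 0.37. With median ratio scaling 3 of the 12 fell. Within levels none of the 12 was called, and Arc was at -0.14 (adjusted p = 0.205).

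**Figure D4:**
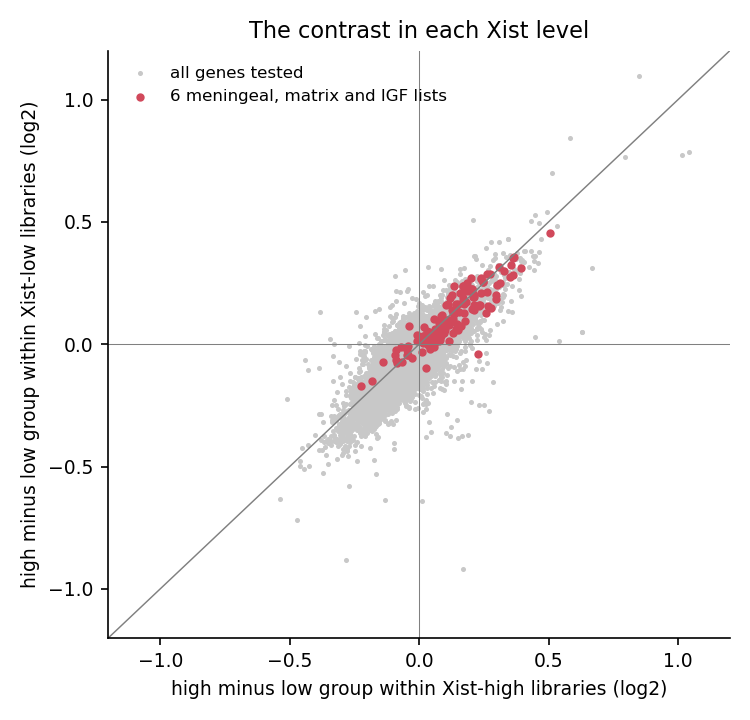
High minus low group of Col1a2 in log2 units, with high and low groups cut inside the Xist-high libraries (horizontal axis) and inside the Xist-low libraries (vertical axis), for all genes tested and for the members of 6 lists. Most list members lie above 0 on both axes and near the line of equal differences.

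No gene differed detectably between the Xist levels in its response to the contrast. Col1a1 differed by 0.53 in Xist-high and 0.49 in Xist-low libraries, Igf2 by 0.51 and 0.45, and Fmod by 0.36 in both. Among 290 genes called higher by at least 0.2 in the Xist-high libraries, 99.3% were also higher in the Xist-low libraries, a separate set. Across all genes 37.9% were higher in the Xist-low libraries. In a limma test of the difference between the levels, 0 of 19239 genes were called and 712 (3.70%) had an unadjusted p under 0.05.

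Meg3, an imprinted noncoding RNA of the nucleus, was among the 20 largest falls. It ran from 7.58 through 9.004 to 9.79 in the low and from 7.47 through 8.39 to 9.33 in the high group. The ranges overlap widely, and the difference was -0.61 ± 0.06 (SE, limma adjusted p = 8.23e-19), with -0.46 ± 0.06 within levels. The noncoding RNAs Ftx, which is X-linked, and Snhg11 fell by 0.58 and 0.47. Miat, which was not among those 20 and was chosen after its values were seen, fell by 0.46. The receptor genes Robo3 and Tnfrsf25 fell by 0.61 each, and Trank1 fell by 0.46.

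With the level of Meg3 as a term, 28 of 1157 genes lower by at least 0.2 stayed lower by at least 0.2, and their median went from -0.25 to -0.05. Of the genes higher by at least 0.2, 40.9% stayed so, and their median went from 0.26 to 0.18. Col1a1, Col3a1 and Igf2 remained higher by 0.67, 0.58 and 0.46. With this term 9.49% of all genes were higher, fibroblast genes in 19 of 34 cases and cerebellar genes in none of 12. Choroid plexus genes were higher in 6 of 20 and lower in 2, ependymal genes higher in 1 of 13, endothelial genes in 1 of 17 and border macrophage genes in 10 of 14. The calls of Bmp1, P3h3, Cbln3, Nefm, Robo3 and Tnfrsf25 also ended with this term. With Xist and Ddx3y as terms, Col6a3 (0.26, limma adjusted p = 0.105), Thbs2 (0.17, adjusted p = 0.17) and Pappa2 (0.09, adjusted p = 0.191) were not called. What sets the level of Meg3 in these libraries was not tested.

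**Figure D5:**
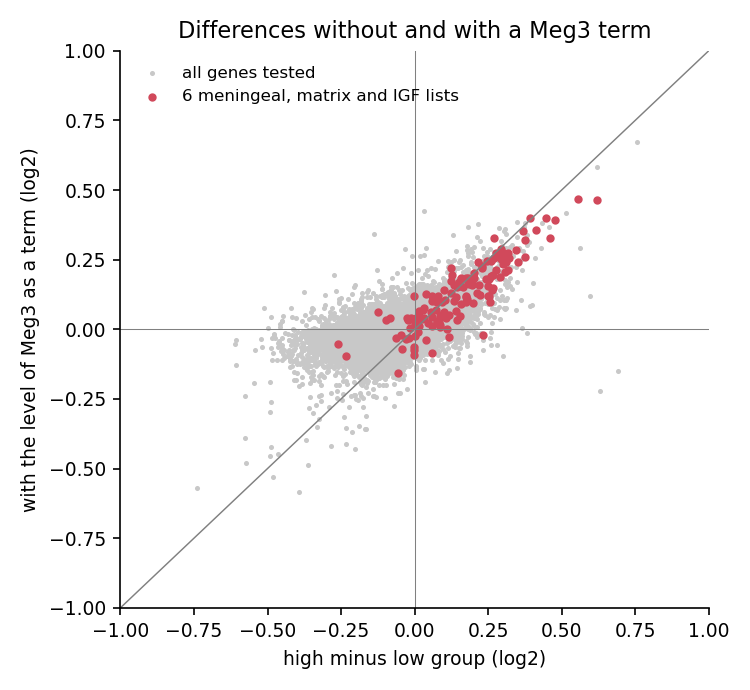
High minus low group in log2 units without (horizontal axis) and with (vertical axis) the level of Meg3 as a term, for all genes tested and the members of 6 lists, with 9 genes beyond the axes not drawn. Most lower genes move close to 0 on the vertical axis, while the highest list members stay well above 0.

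The intermediate group holds the libraries that entered neither end. The same ranking by Col1a2 set its bounds, at 5.594 and 6.02, so its range of Col1a2 is narrow. There, the slope of each gene on Col1a2, in log2 units per log2 unit of Col1a2, was tested across the libraries of the intermediate group. Rising slopes were called for 49 genes (0.255% of genes tested) and falling slopes for 16 (0.0832%). With Xist and Ddx3y as terms these counts were 459 and 639, and with every gene scaled by median ratios, Col1a2 included, 971 and 906. Col1a1 had a slope of 1.09 ± 0.10 (SE, limma adjusted p = 6.63e-16), Fmod of 1.02 ± 0.13 and Igf2 of 0.81 ± 0.09. Cpz, a carboxypeptidase gene, had 0.82 ± 0.13, Col3a1 0.78 ± 0.08, Aebp1 0.73 ± 0.09, Igfbp2 0.67 ± 0.09 and Bgn 0.56 ± 0.08.

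Of the genes higher by at least 0.2 between the high and low groups, 96.2% had a slope above 0 in the intermediate group, where 41.6% of all genes did, and 36 were called. Of the 1158 lower genes, 1082 had a slope below 0, where 58.4% of all genes did, and 9 were called. By list, rising slopes were called for 7 of 34 fibroblast genes, 3 of 35 matrix glycoprotein genes, 2 of 12 small proteoglycan genes and 2 of 21 transporter genes. No gene of the choroid plexus, border macrophage or cerebellar lists was called, in lists of at most 20 genes at a background of 0.255%. Their median slopes were 0.30, 0.27 and 0.11, against 0.15 for the fibroblast list and -0.02 for all genes, so these counts do not set the lists apart. The slopes of Slc6a4 (1.32, limma adjusted p = 0.366) and Meg3 (-0.63, adjusted p = 0.207) were not called.

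The genes whose levels followed Col1a2 most closely over all libraries were matrix and fibroblast genes, and are given as a description. Pearson's r was 0.88 for Col3a1, 0.87 for Col1a1, 0.86 for Igf2, 0.82 for Bgn and 0.81 for Aebp1. Next came Igfbp2 (0.79), Fmod (0.76), Fbln1 (0.73), Vim (0.72) and Nid1 (0.71). These points share the library, its depth and the 2 Xist levels. Inside the levels the values were lower: 0.81 in Xist-high and 0.82 in Xist-low libraries for Col3a1, 0.81 and 0.78 for Col1a1, and 0.80 and 0.78 for Igf2. Slc6a4 had an r of 0.29 and Cd74 of 0.38.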

How the data were processed

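The authors deposited 1 table of log2 values per gene and library, on rn8 per the file header. The submitters' processing notes name kallisto, with no version. Deposited log2 values were turned back into estimated counts by raising 2 to that power and subtracting 1. They are not scaled for depth, and 63.4% of turned-back values between 0.5 and 5 were whole within 0.002, so no count model was used. Each library was scaled to 1000000 counts and log2 of the value plus 1 was taken. Of 352 labelled samples, 342 are in the table, and every column matched a sample: 177 Xist-high and 165 Xist-low libraries (split at 5), with 85, 172 and 85 in the low, intermediate and high groups. RefSeq on GRCr8, which matched 38278 of 38354 gene symbols, gave coordinates and promoters. The labels state that 14 library names were corrected. Pairs of libraries had a median r of 0.991 and a highest of 0.995, and none was counted as a repeat.

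The high and low groups were compared, and slopes on Col1a2 fitted in the intermediate group, with limma 3.58.1 (R 4.3.3), a mean-variance trend over 19239 genes and Benjamini-Hochberg adjustment. The script was tested on simulated data. The libraries, the 30 gene lists and the comparison were chosen with earlier results of these data known. By rule, the genes to name were the 25 largest rises and 20 largest falls, up to 5 of the largest and 2 of the smallest differences of each list, the 10 of highest r with Col1a2 and the markers. The text names a part of them. Alternatives changed the pseudocount, scaling, level minimum, covariates, libraries, the gene that forms the groups and the weights.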

Additional observations from a re-analysis of the deposited data

How the results depend on the processing

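With Meg3 as a term, 1826 genes were higher and 2636 lower, 0.78% were higher and 0.192% lower by at least 0.2, and 31 slopes rose in the intermediate group. With groups formed within Xist levels and Meg3 as a term, chosen after seeing the data, these were 2131, 2544, 0.567% and 0.151%. Xist and Ddx3y as terms gave 1481 higher, 3118 lower, 459 rising and 639 falling genes. Groups within Xist levels, also chosen after seeing the data, gave 3.23% lower by at least 0.2, and Ttr as a term 3.73%. A pseudocount of 0.1 gave 2.86% higher and 13.7% lower by at least 0.2, limma voom 3.05% and 14.6%, and the highest against the lowest 10% of libraries 3.53% and 12%. Median ratio scaling gave 971 rising and 906 falling slopes, and 59 and 16 where Col1a2 was kept as CPM, an alternative added after seeing the data. The cause of these changes was not tested.

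No named gene called in the comparison lost its call or changed sign, and none gained a call, under 9 alternatives: a pseudocount of 0.1, median ratio scaling, a level minimum of 1 or none, identifier sets as a term, library total with ribosomal RNA share as terms, limma voom, without the library of lowest Col1a2, and without the 5% of libraries with fewest genes. Of the 15 named genes not called, all close to 0, up to 7 changed sign under one of these. Aspn, which is below a level of 1, was not tested at that minimum. Other alternatives turned signs. With the Meg3 term, Col11a1 was at 0.0604, Col16a1 at 0.12, Col19a1 at 0.0183, Col24a1 at 0.0424, Col27a1 at 0.043, Col5a2 at 0.14, Col5a3 at 0.15, Fbn2 at 0.12, Miat at 0.0175, Slc6a4 at -0.15 and Tph2 at -0.22. With Xist and Ddx3y as terms, Eif2s3 was at 0.0238, Eif2s3y at -0.0215, Kdm5d at -0.0227 and Uty at -0.027. With groups within Xist levels, Eif2s3 was at 0.0209, Eif2s3y at -0.0329, Glycam1 at 0.0949, Kdm5d at -0.0391, Loxl3 at 0.0851 and Uty at -0.0591. In Xist-high libraries alone, Eif2s3 was at 0.0155, Glycam1 at 0.13, Kdm5d at -0.0066 and Uty at -0.0138. In Xist-low libraries alone, Ddx3y was at -0.11, Eif2s3 at 0.0266, Eif2s3y at -0.0867, Glycam1 at 0.0566, Kdm5d at -0.0739, Loxl3 at 0.11 and Uty at -0.11. Between the highest and lowest 10% of libraries, Loxl3 was at 0.0765. Inside one identifier set, Arc was at 0.18 and Col5a2 at 0.00531. Within the 4 identifier sets large enough to fit, 11, 75, 3 and 88 of the 91 named genes called lost their call, where fewer libraries were tested. Low genes in the smallest libraries rest on few counts.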

Other observations

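More slopes called rising with Col1a2 in the intermediate group are given here, for genes picked after their values were seen. C1r, C1s, C4a and Serping1 belong to the fibroblast list, and its count of rising slopes above includes them. No list holds Hspg2 or Notch2. C1r, a protease of the first complement component, had a slope of 0.44 (limma adjusted p = 7.01e-04), its partner C1s 0.43 (adjusted p = 0.0312) and C4a 0.67 (adjusted p = 0.00104). Serping1, the inhibitor of complement C1, had 0.54 (adjusted p = 0.00454). Hspg2, the basement membrane proteoglycan perlecan, had 0.43 (adjusted p = 0.0106), and the Notch receptor gene Notch2 0.32 (adjusted p = 0.00911).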
